A study of Caenorhabditis elegans with 9 samples.

Results

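Genes that build the nucleolus and make ribosomes were followed in RNA from extruded germ lines of Caenorhabditis elegans. The set held 10 genes, taken from the deposited table by symbol: rpoa-1, rpoa-2, fib-1, dao-5, nst-1, pro-1, pro-2, pro-3, rbd-1 and ncl-1. They are 10 of 46245 genes in the table, and all 10 passed the filter of a mean of at least 1 FPKM (read fragments per 1000 bases of a transcript, scaled to 1000000 mapped fragments in the library) that left 8572 genes to test. Germ lines came from day 6 adults of wild-type worms that were moved at adulthood to their temperature and RNAi food. The 3 groups, of 3 libraries each, were kept on iff-1 RNAi food and 15°C (written iff-1 RNAi 15C), on the empty vector (EV) and 20°C (EV 20C), and on the empty vector and 15°C (EV 15C). Libraries are numbered within a group by the replicate number in their labels. RNAi was fed to whole worms, so cells outside the germ line were exposed to it too, and no group combined iff-1 RNAi with 20°C. Between iff-1 RNAi 15C and EV 20C, food and temperature differ together, so their parts cannot be told apart in that comparison. The labels do not say whether the libraries of a group came from separate cultures; the p-values reflect how far these libraries differ among themselves, and that may be technical spread.

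The nucleolus forms around the ribosomal RNA genes. RNA polymerase I transcribes them there, small nucleolar ribonucleoproteins (snoRNPs) modify the transcript, and assembly factors fold and cut it into the small and large ribosomal subunits. Germ cells of the worm have large nucleoli, and proliferating germ cells depend on a high output of ribosomes. The gene ncl-1 acts in the other direction: its product limits nucleolar size in the worm, and its loss enlarges nucleoli. The RNAi target iff-1 encodes a germ line form of the translation factor eIF5A and is needed for germ cell proliferation.

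All differences in the 10 genes were small, and 8 of the 10 calls made over the 3 comparisons were lost when some 1 library was left out. Under iff-1 RNAi at 15°C, rpoa-1, fib-1, pro-1 and pro-2 fell against EV 15C, with mean FPKM -18.3% to -9.05% from that of EV 15C. Against EV 20C, where temperature differed too, pro-1, pro-2 and rbd-1 were lower and nst-1 was higher. At 20°C, fib-1 and nst-1 fell against EV 15C, each with a mean -12.7% from it. In the order of these comparisons, 40%, 40% and 20% of the 10 genes were called. That was near the 31.0%, 48.9% and 28.0% of all tested genes. The lower levels of pro-1 and pro-2 against EV 20C were called under each of the 18 alternative settings run. Against EV 15C, at the same temperature, pro-1 was called lower in 10 of the 18 and pro-2 in 15. Transcripts of ncl-1 passed the test in no comparison. Of 5 lists of other ribosome production genes, small subunit assembly fell most uniformly under iff-1 RNAi. Of its 11 symbols 7 were matched and tested, and 7 of 7 were called lower against EV 15C, where 15.0% of all tested genes were lower. Under the 18 alternatives 5 to 7 of them were called lower.

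Library depth was estimated at 40600000 to 47400000 fragments from the steps between low values. At that depth the 10 genes had between 2193 estimated fragments (pro-1 in its lowest library) and 55413 (fib-1 in its highest), so counting error was at most 2.14% of a value. The target iff-1 averaged 66.4 ± 34.0 FPKM in iff-1 RNAi 15C, 2529 ± 119.4 FPKM in EV 20C and 2613 ± 90.4 FPKM in EV 15C (SD, n = 3 each). All 11 germ line markers were tested, and their summed level was 3965 to 4026 FPKM in iff-1 RNAi 15C, 4221 to 4386 in EV 20C and 4039 to 4113 in EV 15C. Of 12 intestine markers, 9 were tested. The sum of all 12 was 113 to 288 FPKM in iff-1 RNAi 15C, 59.2 to 141 in EV 20C and 83.1 to 277 in EV 15C. The highest single marker of these was gld-1 at 848 FPKM for germ line and vit-2 at 36.5 FPKM for intestine. Of the germ line markers, 2 rose and 3 fell in iff-1 RNAi 15C over EV 15C, 2 rose and 6 fell over EV 20C, and in EV 20C over EV 15C 4 rose and 1 fell. Of the other markers, 3 of 6 neuron markers rose in iff-1 RNAi 15C over EV 15C, and 3 neuron, 3 intestine, 2 cuticle and 1 somatic gonad marker rose over EV 20C. Also over EV 15C, 1 muscle marker fell under iff-1 RNAi, and 2 muscle, 2 cuticle and 1 pharynx marker fell at 20°C. Tested were 7 muscle, 4 cuticle, 1 pharynx and 3 somatic gonad markers. Of all tested genes, 16.0% rose and 15.0% fell in iff-1 RNAi 15C over EV 15C, and 20.5% rose and 28.4% fell over EV 20C. In EV 20C over EV 15C, 19.3% rose and 8.69% fell. The highest intestine sums were in iff-1 RNAi library 1 and EV 15C library 3. Summed somatic gonad markers, of which ehn-3 was listed at 0 throughout, were 79.3 to 95.3, 64.1 to 115 and 85.1 to 111 FPKM in the same order of groups. Cuticle and epidermis markers summed to 12.6 to 27.04, 4.62 to 12.6 and 13.1 to 24.4 FPKM, and pharynx markers to 12.1 to 13.3, 10.2 to 12.7 and 13.2 to 14.8 FPKM. Muscle markers summed to 106 to 132, 89.1 to 140 and 147 to 170 FPKM, and neuron markers to 29.7 to 33.9, 23.5 to 26.9 and 24.2 to 26.3 FPKM. The part of other cells in the results below was not tested. In these bulk samples, fewer cells of a type and less RNA per cell cannot be told apart.

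Levels of the 10 genes spanned a 64.9-fold range, and FPKM is per length, so they can be set side by side. The gene fib-1, which encodes fibrillarin, stood far above the others with a mean of 962.5 FPKM over the 9 libraries, above 98.4% of tested genes. Next came nst-1 at 171 FPKM and dao-5 at 155 FPKM, then pro-2 at 72.0, rbd-1 at 46.6, rpoa-2 at 43.0 and pro-1 at 40.3 FPKM. The lowest 3 were pro-3 at 23.8, ncl-1 at 21.2 and rpoa-1 at 14.8 FPKM, the last above 36.1% of tested genes. Of the 9 pairs of neighbours in this order, 4 had library ranges that overlapped: nst-1 and dao-5, rbd-1 and rpoa-2, rpoa-2 and pro-1, and pro-3 and ncl-1. Each gene varied little across the study, from a 1.14-fold range between its highest and lowest library for rpoa-2 to 1.63-fold for rbd-1 (median 1.28-fold).

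**Figure D1:**
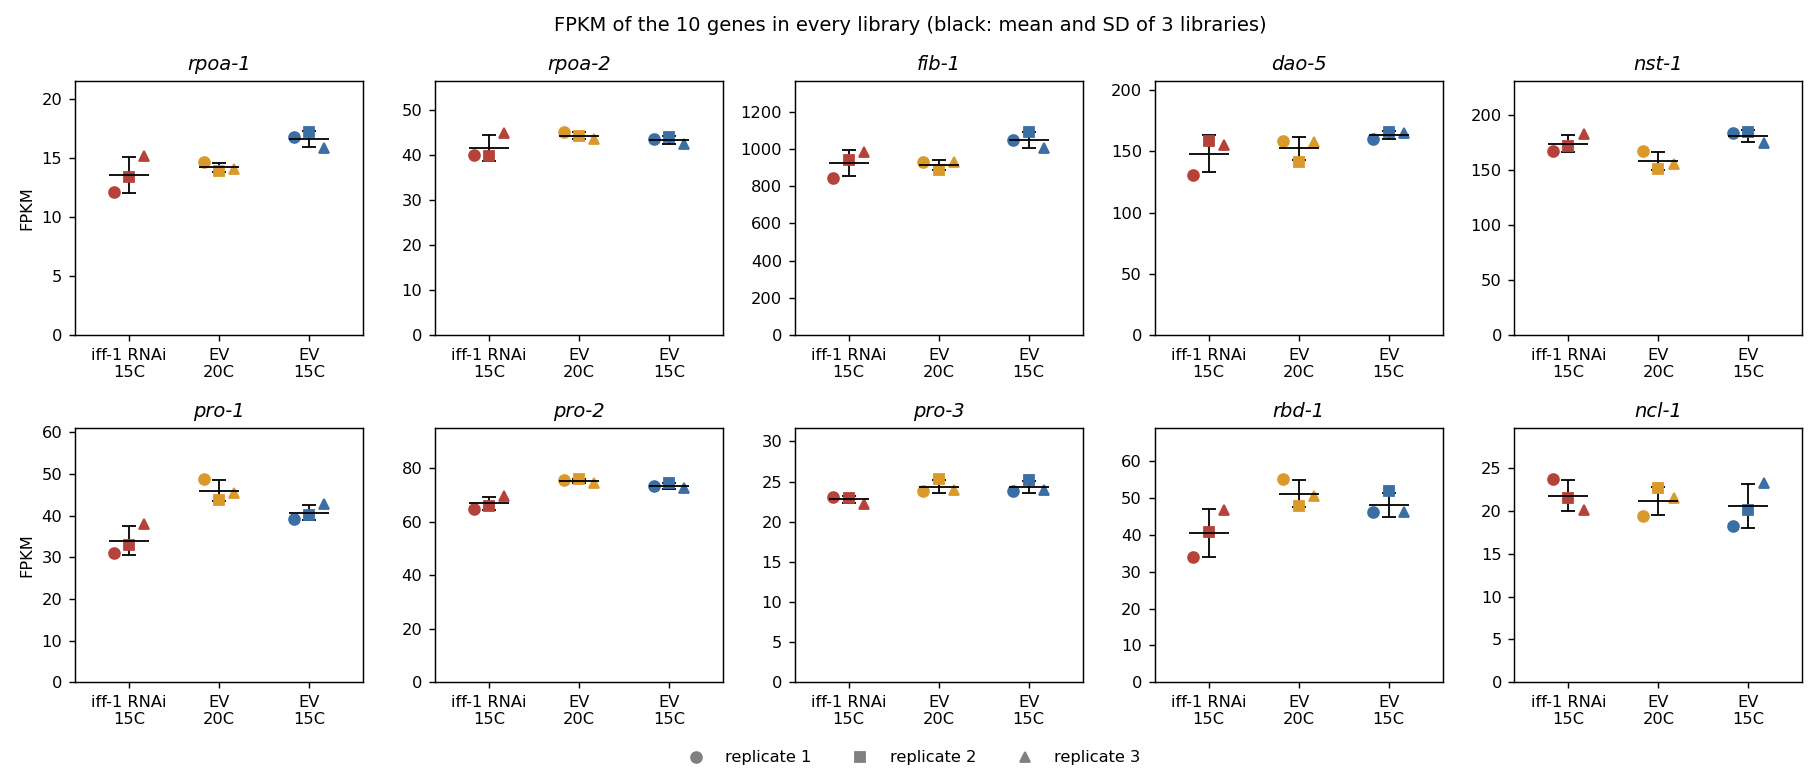
Each panel plots the FPKM of 1 gene in every library (symbols by replicate), with groups from left to right iff-1 RNAi 15C, EV 20C and EV 15C; black bars give the mean and SD of 3 libraries and every axis starts at 0. The panels show how close the groups lie, with pro-1 lowest in iff-1 RNAi 15C (34.0 ± 3.56 FPKM) and fib-1 highest in EV 15C (1049 ± 43.2 FPKM).

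Differences were tested with limma on log2(FPKM + 1), in 1 fit of the 9 libraries, with Benjamini-Hochberg adjustment over all 8572 tested genes and calls made at an adjusted p under 0.05. With iff-1 RNAi 15C over EV 15C, 0 of the 10 genes rose and 4 fell, against a background of 31.0% of tested genes called (16.0% higher and 15.0% lower). In 6 of the 10 the libraries of the groups did not overlap, against 49.7% of tested genes. The median log2 difference of the 10 was -0.14, against 0.01 over all tested genes, and 9 of 10 lay below 0. With iff-1 RNAi 15C over EV 20C, 1 rose and 3 fell, against 48.9% called (20.5% higher and 28.4% lower), 5 of 10 did not overlap against 56.5%, and the medians were -0.08 for the 10 genes and -0.02 for all. With EV 20C over EV 15C, 0 rose and 2 fell, against 28.0% called (19.3% higher and 8.69% lower), 5 of 10 did not overlap against 45.4%, and the medians were 0.02 and 0.03. The split of all calls in that comparison, 1656 higher and 745 lower, was 1228 and 1041 under median ratio scaling and 1261 and 1021 under quantile normalization. The share of the 10 genes called (40%, 40% and 20%) was near the background in each comparison. The comparisons share libraries and are given side by side for that reason alone. When single libraries were left out, the count called was 0 to 6, 2 to 4 and 0 to 3 in the same order of comparisons. It was 0 for iff-1 RNAi 15C over EV 15C without EV 15C library 2 or without iff-1 RNAi library 1 or 2, and 1 without EV 15C library 1 or EV 20C library 3. It was 0 for EV 20C over EV 15C without EV 15C library 1 or 2 or EV 20C library 3, and 1 without EV 20C library 2 or iff-1 RNAi library 2. For iff-1 RNAi 15C over EV 20C it was 2 without EV 20C library 3 or iff-1 RNAi library 2.

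**Figure D2:**
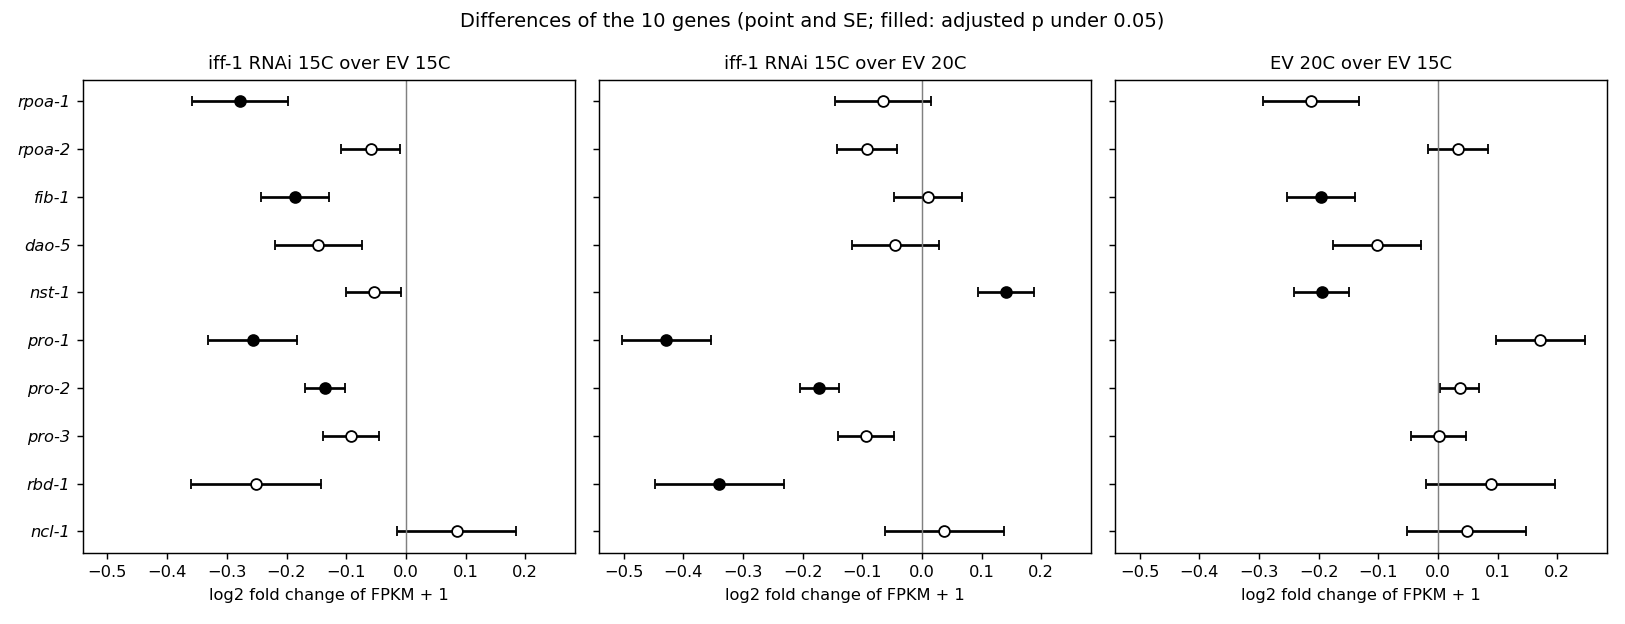
Points give the log2 fold change of FPKM + 1 for each of the 10 genes with limma's SE, in panels for iff-1 RNAi 15C over EV 15C, iff-1 RNAi 15C over EV 20C and EV 20C over EV 15C; filled points had an adjusted p under 0.05. The differences run from -0.43 (pro-1, iff-1 RNAi 15C over EV 20C) to 0.17 (pro-1, EV 20C over EV 15C), and ncl-1 is open in each panel.

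The genes rpoa-1 and rpoa-2 encode the largest subunits of RNA polymerase I, which together form its catalytic centre. In WBcel235 coordinates, rpoa-1 (WBGene00012999) lies at chrII:13670626-13694795 on the minus strand and rpoa-2 (WBGene00008781) at chrI:9280923-9286576 on the minus strand. In iff-1 RNAi 15C, rpoa-1 had 12.2, 13.4 and 15.2 FPKM, in EV 20C 14.7, 14.0 and 14.1 FPKM, and in EV 15C 16.8, 17.2 and 15.9 FPKM. Each EV 15C library was above each library of the other groups, while the iff-1 RNAi libraries lay on both sides of the EV 20C libraries. Against EV 15C, rpoa-1 fell under iff-1 RNAi by 0.28 on the log2 scale (SE 0.08, limma adjusted p = 0.0295), a difference in means of -18.3%. The call was lost without EV 15C library 1 or 2, EV 20C library 3 or iff-1 RNAi library 1 or 2 (adjusted p = 0.0501 to 0.0978), and under quantile normalization, without the filter or in a fit of the pair of groups alone. At 20°C the difference was -0.21 (SE 0.08) and did not pass (limma adjusted p = 0.0792); without iff-1 RNAi library 1 or 3 it did (adjusted p = 0.0493 and 0.0415), as under median ratio or quantile scaling or in a fit of the pair of groups alone.

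The partner rpoa-2 had 40.0, 39.7 and 44.9 FPKM in iff-1 RNAi 15C, 45.1, 44.2 and 43.5 FPKM in EV 20C, and 43.4, 43.9 and 42.3 FPKM in EV 15C. All 3 groups overlapped, and the log2 differences of -0.06, -0.09 and 0.03 (iff-1 RNAi 15C over EV 15C, iff-1 RNAi 15C over EV 20C, EV 20C over EV 15C) did not pass (limma adjusted p = 0.405, 0.158 and 0.65). Without iff-1 RNAi library 3, the library with the highest of the iff-1 RNAi values, rpoa-2 passed as lower against EV 15C (adjusted p = 0.0464) and EV 20C (adjusted p = 0.012), and it also passed against EV 20C if the 10 highest genes were left out of the scaling. The level of rpoa-1 relative to rpoa-2 was 0.304 to 0.339 in iff-1 RNAi 15C, 0.316 to 0.325 in EV 20C and 0.376 to 0.392 in EV 15C. The EV 15C ratios therefore lay above those of both other groups, a description with no test.

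Fibrillarin, the product of fib-1 (WBGene00001423, chrV:15000651-15002223, minus strand), is the methyltransferase of box C/D snoRNPs and a standard marker of the nucleolus. In iff-1 RNAi 15C, fib-1 had 846, 941 and 983 FPKM, in EV 20C 932, 885 and 929 FPKM, and in EV 15C 1049, 1092 and 1005 FPKM. The EV 15C libraries were the highest 3 of the 9, and the other groups overlapped each other. Against EV 15C, fib-1 fell by 0.19 under iff-1 RNAi (SE 0.06, limma adjusted p = 0.0381) and by 0.20 at 20°C (SE 0.06, limma adjusted p = 0.0343). Between iff-1 RNAi 15C and EV 20C the difference was 0.01 (SE 0.06, limma adjusted p = 0.898). Under iff-1 RNAi the call was lost without EV 15C library 1 or 2, EV 20C library 3 or iff-1 RNAi library 1 or 2 (adjusted p = 0.0595 to 0.124), and at 20°C without EV 15C library 1 or 2, EV 20C library 2 or 3 or iff-1 RNAi library 2 (adjusted p = 0.0532 to 0.114). Both calls were also lost without the filter or the variance trend, and the first under quantile normalization or in a fit of the pair of groups alone.

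The gene dao-5 (WBGene00000931, chrI:10187546-10190896, minus strand) encodes a nucleolar phosphoprotein related to mammalian Nopp140, which accompanies snoRNPs and polymerase I. It had 131, 158 and 155 FPKM in iff-1 RNAi 15C, 159, 141 and 157 FPKM in EV 20C, and 160, 166 and 165 FPKM in EV 15C. Library 1 of iff-1 RNAi 15C and library 2 of EV 20C were the low libraries, and EV 15C lay above both groups by a narrow margin. No comparison passed: the log2 differences were -0.15 for iff-1 RNAi 15C over EV 15C, -0.04 for iff-1 RNAi 15C over EV 20C and -0.10 for EV 20C over EV 15C (limma adjusted p = 0.162, 0.645 and 0.322).

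The product of nst-1 (WBGene00003821, chrII:8281162-8283208, minus strand) is the worm nucleostemin, a nucleolar GTPase of ribosome production. In iff-1 RNAi 15C, nst-1 had 168, 172 and 183 FPKM, in EV 20C 167, 152 and 155 FPKM, and in EV 15C 183, 185 and 174 FPKM. The EV 20C libraries were the lowest 3 of the 9, with library 1 just under the lowest iff-1 RNAi library. Against EV 15C, nst-1 fell at 20°C by 0.19 (SE 0.05, limma adjusted p = 0.0159), and under iff-1 RNAi the difference of -0.05 did not pass (limma adjusted p = 0.411). Against EV 20C, nst-1 was 10.3% higher in iff-1 RNAi 15C, a log2 difference of 0.14 (SE 0.05, limma adjusted p = 0.0335). The fall at 20°C was lost without EV 15C library 1 or 2 or EV 20C library 3 (adjusted p = 0.0568 to 0.0585). The rise was lost without EV 20C library 2 or 3 or iff-1 RNAi library 2 or 3 (adjusted p = 0.0655 to 0.103), and without the filter, without the variance trend or in a fit of the pair of groups alone.

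The pro genes of C. elegans were found through mutants in which germ cells proliferate at the proximal end of the gonad, and their products are homologues of yeast ribosome assembly factors. The WD-repeat protein PRO-1 is encoded by pro-1 (WBGene00004185, chrII:10539438-10541996, minus strand). In iff-1 RNAi 15C, pro-1 had 31.1, 33.0 and 38.0 FPKM, in EV 20C 48.8, 43.8 and 45.5 FPKM, and in EV 15C 39.2, 40.3 and 42.7 FPKM. No 2 groups overlapped: iff-1 RNAi 15C was lowest, EV 15C stood between, and EV 20C was highest. Against EV 20C, pro-1 was lower in iff-1 RNAi 15C by 0.43 (SE 0.07, limma adjusted p = 0.00193), a difference in means of -26.1%. This call held in 18 of 18 alternatives (adjusted p at most 0.01). Against EV 15C, pro-1 fell by 0.26 (SE 0.07, limma adjusted p = 0.0312). That call was lost without EV 15C library 1, 2 or 3, EV 20C library 3 or iff-1 RNAi library 1 or 2 (adjusted p = 0.0516 to 0.105), without the filter and in a fit of the pair of groups alone. The difference of 0.17 for EV 20C over EV 15C did not pass (SE 0.07, limma adjusted p = 0.119).

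The product of pro-2 (WBGene00007413, chrII:10339727-10345112, minus strand) is a homologue of the nucleolar complex protein Noc2 of yeast. It had 64.8, 66.1 and 69.8 FPKM in iff-1 RNAi 15C, 75.7, 76.1 and 74.6 FPKM in EV 20C, and 73.3, 74.7 and 72.6 FPKM in EV 15C. Each iff-1 RNAi library was below each EV library, and the EV groups overlapped narrowly. In iff-1 RNAi 15C, pro-2 was lower than in EV 20C by 0.17 (SE 0.03, limma adjusted p = 0.00302), which held in 18 of 18 alternatives (adjusted p at most 0.0133). It fell by 0.14 against EV 15C (SE 0.03, limma adjusted p = 0.0154), a call lost without EV 15C library 2 or iff-1 RNAi library 1 or 2 (adjusted p = 0.0501 to 0.0573). The difference of 0.04 for EV 20C over EV 15C did not pass (limma adjusted p = 0.442).

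The product of pro-3 (WBGene00012676, chrV:19101347-19118412, minus strand) is a homologue of yeast Sda1, a factor of large subunit assembly. It had 23.1, 22.9 and 22.3 FPKM in iff-1 RNAi 15C, 23.8, 25.3 and 24.0 FPKM in EV 20C, and 23.8, 25.2 and 24.0 FPKM in EV 15C. The iff-1 RNAi libraries lay below all EV libraries by a narrow margin, and the EV groups overlapped. The log2 differences of -0.09 against EV 15C and -0.09 against EV 20C did not pass (limma adjusted p = 0.165 and 0.127), and neither did that of 0.0013 for EV 20C over EV 15C (limma adjusted p = 0.99). Exons of pro-3 share 440 nt on the same strand with zhp-4, which averaged 22.5 FPKM, so the level of pro-3 is uncertain.

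The gene rbd-1 (WBGene00004315, chrIV:12724986-12730095, plus strand) encodes a protein of several RNA-binding domains, related to yeast Mrd1, that takes part in small subunit maturation. In iff-1 RNAi 15C, rbd-1 had 33.9, 40.8 and 46.9 FPKM, in EV 20C 55.2, 47.9 and 50.5 FPKM, and in EV 15C 46.2, 51.9 and 46.3 FPKM. The iff-1 RNAi libraries had the widest spread relative to their mean of any group for the 10 genes, with library 3 inside the EV 15C range and below the EV 20C libraries. Against EV 20C, rbd-1 fell by 0.34 (SE 0.11, limma adjusted p = 0.0297), a difference in means of -20.8%. The call was lost without EV 20C library 1 or 3 or iff-1 RNAi library 1 or 2 (adjusted p = 0.0672 to 0.092), and without the filter, under quantile normalization or in a fit of the pair of groups alone. Against EV 15C the difference of -0.25 did not pass (SE 0.11, limma adjusted p = 0.112), but it did without iff-1 RNAi library 3 (adjusted p = 0.0276). For EV 20C over EV 15C the difference was 0.09 (limma adjusted p = 0.574).

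The inhibitor ncl-1 (WBGene00003559, chrIII:7719729-7738105, plus strand) encodes a TRIM-NHL protein that restrains nucleolar size and fibrillarin levels in the worm. It had 23.7, 21.5 and 20.1 FPKM in iff-1 RNAi 15C, 19.4, 22.7 and 21.4 FPKM in EV 20C, and 18.2, 20.1 and 23.3 FPKM in EV 15C. All 3 groups overlapped, and EV 15C spanned nearly the whole range of the 9 libraries. The log2 differences were 0.09 for iff-1 RNAi 15C over EV 15C (SE 0.10, limma adjusted p = 0.552), 0.04 for iff-1 RNAi 15C over EV 20C (SE 0.10, limma adjusted p = 0.78) and 0.05 for EV 20C over EV 15C (SE 0.10, limma adjusted p = 0.747).

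The libraries of a group were ordered alike across many of these genes. Library 1 of iff-1 RNAi 15C was the lowest of its group for 7 of the 10 genes, and library 3 the highest for 7. In EV 20C, library 1 was the highest for 7 genes and library 2 the lowest for 6, and in EV 15C library 2 was the highest for 8. Over the 44 other ribosome production genes described below, iff-1 RNAi library 1 was the lowest of its group for 34 and library 3 the highest for 37. In EV 20C, library 1 was the highest of its group for 29 of the 44 and library 2 the lowest for 28. In EV 15C, library 3 was the lowest for 28. The median coefficient of variation of the 10 genes was 8.01% in iff-1 RNAi 15C, 4.32% in EV 20C and 3.65% in EV 15C, against 5.57%, 6.43% and 4.49% over all tested genes. Library 3 of iff-1 RNAi 15C had the lowest iff-1 level of its group at 37.4 FPKM, and library 1 the highest at 104 FPKM. The part of this order in the differences was not tested.

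The wider machinery was described with 5 lists of other ribosome production genes, of whose 55 symbols 45 were matched and 44 tested. With iff-1 RNAi 15C over EV 15C, 2 of the 44 rose and 20 fell (median log2 difference -0.13). With iff-1 RNAi 15C over EV 20C, 4 rose and 15 fell (median -0.06), and with EV 20C over EV 15C, 5 rose and 9 fell (median -0.04). The share called was 50%, 43.2% and 31.8%, against the backgrounds of 31.0%, 48.9% and 28.0% above. Against EV 15C, the falls under iff-1 RNAi numbered 12 without EV 15C library 2 and 13 without iff-1 RNAi library 1 or library 2, and the rises numbered 4 without EV 20C library 1. Against EV 20C the rises numbered 2 without iff-1 RNAi library 3. For EV 20C over EV 15C, rises and falls were 2 and 5 without EV 15C library 1, 4 and 5 without EV 15C library 2 or EV 20C library 3, and 2 and 9 without EV 15C library 3; median ratio scaling gave 2 and 16, and scaling that leaves out the 10 highest genes gave 9 and 7.

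**Figure D3:**
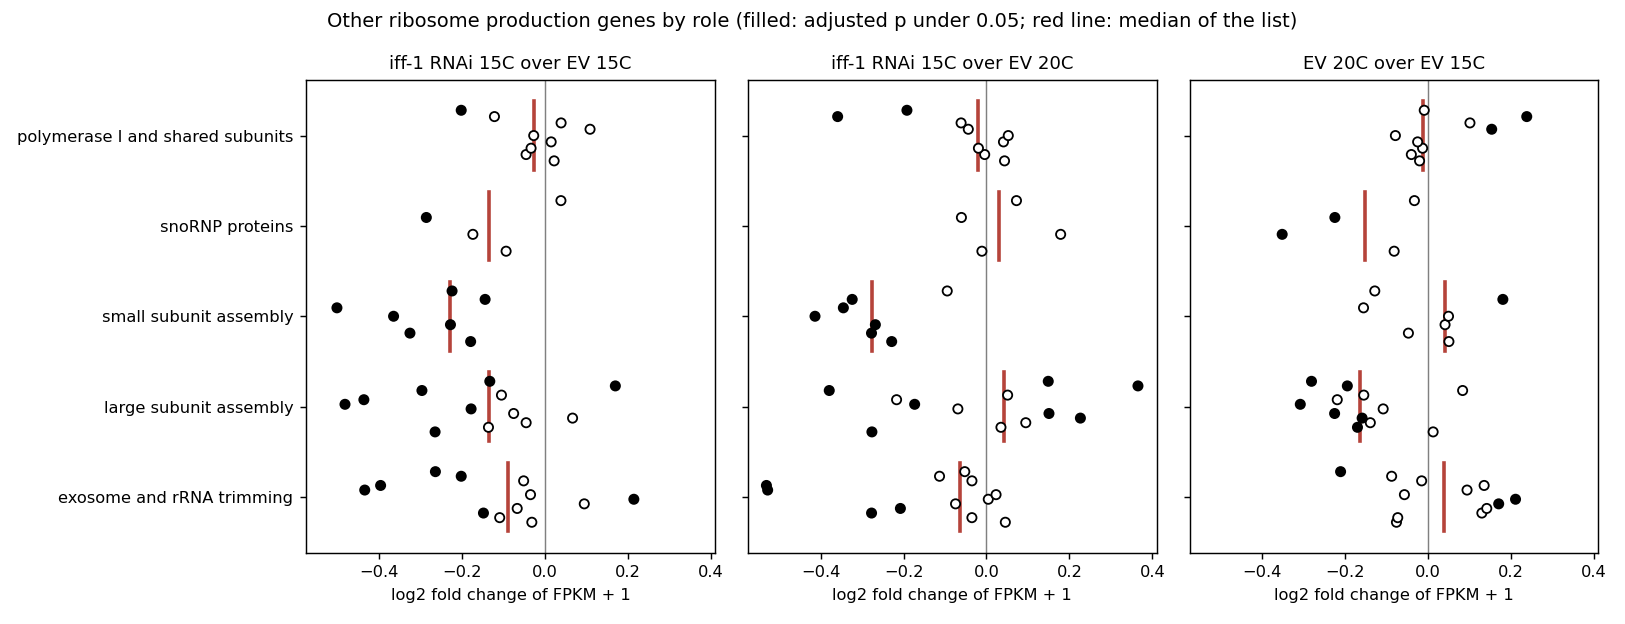
Each point is 1 of 44 other ribosome production genes, placed by its log2 fold change of FPKM + 1 and grouped in rows by role, in panels for iff-1 RNAi 15C over EV 15C, iff-1 RNAi 15C over EV 20C and EV 20C over EV 15C; filled points had an adjusted p under 0.05 and the red line is the median of the row. The row of small subunit assembly lies to the left of 0 in both iff-1 RNAi panels, with medians of -0.23 and -0.28.

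Small subunit assembly factors moved most uniformly of the 5 lists under iff-1 RNAi. Of the 11 symbols of this list 7 were matched, so it is partial. Of 7 tested genes of this list, 7 fell against EV 15C and 6 against EV 20C under iff-1 RNAi, while 1 rose and 0 fell in EV 20C over EV 15C. The list leaves out rbd-1, which is among the 10 genes. In iff-1 RNAi 15C, rbd-1 was called lower against EV 20C but not against EV 15C (limma adjusted p = 0.112). Of all tested genes 15.0% fell against EV 15C and 28.4% against EV 20C under iff-1 RNAi, and 19.3% rose in EV 20C over EV 15C. The median log2 difference was -0.23, -0.28 and 0.04. Between 5 and 7 of them fell in each iff-1 RNAi comparison under the 18 alternatives.

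The gene nol-14, a homologue of a yeast factor of the small subunit processome, had 22.8, 23.8 and 23.2 FPKM in iff-1 RNAi 15C, 30.5, 31.5 and 32.1 FPKM in EV 20C, and 29.3, 31.2 and 30.3 FPKM in EV 15C. The iff-1 RNAi libraries formed a tight group well below the EV libraries, which overlapped. The log2 difference was -0.36 against EV 15C (SE 0.04, limma adjusted p = 0.000757) and -0.41 against EV 20C (SE 0.04, limma adjusted p = 0.000167). The gene nol-6, of the same processome, had 8.56, 9.32 and 10.7 FPKM in iff-1 RNAi 15C, 12.7, 12.0 and 12.2 FPKM in EV 20C, and 13.9, 13.6 and 14.0 FPKM in EV 15C. It fell by 0.50 against EV 15C (limma adjusted p = 0.00264) and by 0.35 against EV 20C (limma adjusted p = 0.00743), and no 2 groups overlapped. The call against EV 20C was lost under quantile normalization.

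The rest of the list had smaller falls. The processome gene nol-10 averaged 77.8 ± 4.08 FPKM in iff-1 RNAi 15C, 93.8 ± 2.31 in EV 20C and 91.2 ± 1.20 in EV 15C (SD, n = 3 each). The rRNA acetyltransferase gene nath-10 averaged 37.2 ± 2.62, 45.2 ± 0.988 and 46.7 ± 0.792 FPKM in the same order of groups. Both fell in both iff-1 RNAi comparisons. The rRNA methyltransferase gene emg-1 averaged 108 ± 6.00 FPKM in iff-1 RNAi 15C, 126 ± 7.95 in EV 20C and 122 ± 3.98 in EV 15C, and also fell in both, against EV 15C by 0.18 (limma adjusted p = 0.0368). The kinase gene riok-1 averaged 34.9 ± 1.02 FPKM in iff-1 RNAi 15C, 43.9 ± 2.50 in EV 20C and 38.6 ± 0.615 in EV 15C. It fell under iff-1 RNAi against both, by 0.14 against EV 15C (limma adjusted p = 0.0459), and rose at 20°C by 0.18 (limma adjusted p = 0.0219). That rise was lost without any 1 of the EV 15C libraries (adjusted p = 0.0516 to 0.075) and under median ratio or quantile scaling. The kinase gene riok-2 fell against EV 15C by 0.22 (limma adjusted p = 0.0089), and its difference of -0.09 against EV 20C did not pass (limma adjusted p = 0.132). Against EV 15C, nol-6, nol-10, nol-14, nath-10 and riok-2 were called in 18 of 18 alternatives, emg-1 in 9 and riok-1 in 6. For emg-1 that call was lost without EV 15C library 1, 2 or 3, EV 20C library 2 or iff-1 RNAi library 1 or 2 (adjusted p = 0.0506 to 0.125). For riok-1 it was lost without EV 15C library 1, 2 or 3, EV 20C library 3 or iff-1 RNAi library 1, 2 or 3 (adjusted p = 0.0637 to 0.12). Without iff-1 RNAi library 3, riok-2 passed against EV 20C as well (adjusted p = 0.00951).

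**Figure D4:**
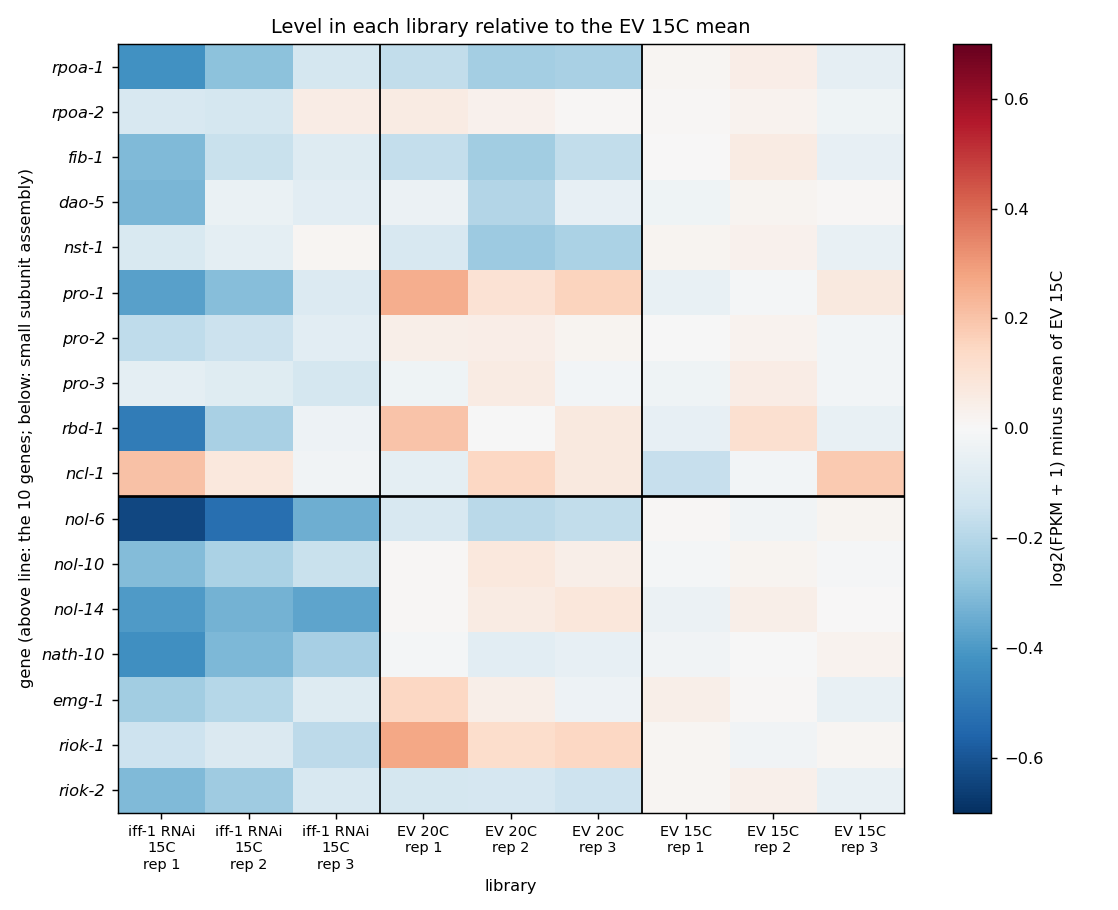
Colour gives log2(FPKM + 1) minus the EV 15C mean for each gene (rows, the 10 genes above the line and 7 small subunit assembly genes below it) in each library (columns, iff-1 RNAi 15C, EV 20C and EV 15C from left to right). The small subunit genes are below the EV 15C mean across the iff-1 RNAi libraries, with library 3 the least so for nol-6 at 10.7 FPKM.

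Large subunit assembly was split. Of 12 tested genes, 1 rose and 6 fell in iff-1 RNAi 15C over EV 15C, 4 rose and 3 fell over EV 20C, and 0 rose and 6 fell in EV 20C over EV 15C (medians -0.13, 0.04 and -0.17). The share called was 58.3%, 58.3% and 50%, against 31.0%, 48.9% and 28.0% of all tested genes. Over EV 20C, 20.5% of all tested genes rose and 28.4% fell. The gene nsun-1, a homologue of the rRNA cytosine methyltransferase NOP2 of yeast, averaged 66.1 ± 6.10 FPKM in iff-1 RNAi 15C, 74.5 ± 1.62 in EV 20C and 92.5 ± 3.26 in EV 15C (SD, n = 3 each). It fell by 0.48 under iff-1 RNAi (limma adjusted p = 0.001) and by 0.31 at 20°C (limma adjusted p = 0.00764) against EV 15C. Both calls held in 18 of 18 alternatives, but nsun-1 overlaps W07E6.5 on the other strand over 1299 nt, and whether counting used strand is not given in the sources used here.

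By contrast rrp-8, a homologue of a yeast rRNA base methyltransferase, averaged 108 ± 3.62 FPKM in iff-1 RNAi 15C, 83.3 ± 4.35 in EV 20C and 95.5 ± 2.07 in EV 15C. In iff-1 RNAi 15C it was higher than in EV 20C by 0.37 (limma adjusted p = 0.000283), in 18 of 18 alternatives. It was higher than in EV 15C by 0.17 (limma adjusted p = 0.0171). The call against EV 15C was lost without EV 15C library 2 or iff-1 RNAi library 1 (adjusted p = 0.0635 and 0.0626) and if the 10 highest genes were left out of the scaling. The gene rrp-1 averaged 50.0 ± 5.29 FPKM in iff-1 RNAi 15C and 65.1 ± 2.71 in EV 20C, a fall of 0.38 (limma adjusted p = 0.00336). Over EV 15C, the list had 0 rises and 3 falls without EV 15C library 2, and 0 and 4 without iff-1 RNAi library 1. Over EV 20C it had 2 rises and 4 falls without iff-1 RNAi library 3. Under median ratio scaling 10 of 12 fell in EV 20C over EV 15C.

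The snoRNP list held proteins of box C/D particles, which carry fibrillarin, and dkc-1, the pseudouridine synthase gene of box H/ACA particles. Of 4 tested genes, 0 rose and 1 fell in iff-1 RNAi 15C over EV 15C, 0 were called by limma over EV 20C (1 at an unadjusted p under 0.05), and 0 rose and 2 fell in EV 20C over EV 15C (25%, 0% and 50% called, against 31.0%, 48.9% and 28.0% of all tested genes). The gene nol-58 averaged 344 ± 29.8 FPKM in iff-1 RNAi 15C and 418 ± 12.999 in EV 15C, a fall of 0.29 (limma adjusted p = 0.0106). The gene nol-56 averaged 330 ± 25.8 FPKM in EV 20C and 420 ± 6.57 in EV 15C, a fall of 0.35 (limma adjusted p = 0.00833). Both calls held in 18 of 18 alternatives. The level of fib-1 relative to nol-58 was 2.67 to 2.72 in iff-1 RNAi 15C, 2.49 to 2.62 in EV 20C and 2.49 to 2.54 in EV 15C. Relative to nol-56 it was 2.45 to 2.51 in iff-1 RNAi 15C, 2.64 to 2.93 in EV 20C and 2.43 to 2.59 in EV 15C, so iff-1 RNAi 15C stood apart in the first ratio and EV 20C in the second, with no test. Without EV 15C library 1 or 2 or EV 20C library 2 or 3 the falls at 20°C numbered 1. Without iff-1 RNAi library 3 those against EV 15C numbered 2. Over EV 20C, 2 genes rose without EV 20C library 1 and 1 without iff-1 RNAi library 1.

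The list of other polymerase I subunits included those shared with other polymerases. Of 9 tested genes, 0 rose and 1 fell in iff-1 RNAi 15C over EV 15C, 0 rose and 2 fell over EV 20C, and 2 rose and 0 fell in EV 20C over EV 15C (11.1%, 22.2% and 22.2% called, against 31.0%, 48.9% and 28.0% of all tested genes). The small polymerase I subunit gene rpoa-12 had 100.03, 100.05 and 119.5 FPKM in iff-1 RNAi 15C, 137, 129 and 143.4 FPKM in EV 20C, and 119.55, 112 and 116 FPKM in EV 15C. It was highest in the EV 20C libraries. In iff-1 RNAi 15C, rpoa-12 was lower than in EV 20C by 0.36 (limma adjusted p = 0.00334), in 18 of 18 alternatives. Against EV 15C, at the same temperature, its difference of -0.12 did not pass (limma adjusted p = 0.225). At 20°C it rose by 0.24 against EV 15C (limma adjusted p = 0.0365). That rise was lost without EV 15C library 1, 2 or 3 or EV 20C library 1 or 3 (adjusted p = 0.0666 to 0.122), under median ratio or quantile scaling, and without the filter or the variance trend. The subunit gene rpoa-49 averaged 58.5 ± 4.60 FPKM in iff-1 RNAi 15C and 67.3 ± 2.76 in EV 15C, a fall of 0.20 (limma adjusted p = 0.0483). This was lost without EV 15C library 1, 2 or 3, EV 20C library 3 or iff-1 RNAi library 1 or 2 (adjusted p = 0.0585 to 0.156), without the filter or the variance trend and in a fit of the pair of groups alone, and its exons overlap rpt-4 on the other strand over 103 nt. Under median ratio scaling 0 genes of the list rose and 1 fell at 20°C. The rises at 20°C numbered 0 without EV 15C library 3 and 1 without EV 15C library 1 or 2 or EV 20C library 1 or 3. The falls over EV 20C numbered 1 without EV 15C library 1 or 2, EV 20C library 1 or 3 or iff-1 RNAi library 1 or 2, and those over EV 15C numbered 2 without iff-1 RNAi library 3. Over EV 15C, 1 gene rose without EV 20C library 1.

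The exosome and other nucleases trim the ends of rRNA. Of 12 tested genes, 1 rose and 5 fell in iff-1 RNAi 15C over EV 15C, 0 rose and 4 fell over EV 20C, and 2 rose and 1 fell in EV 20C over EV 15C. The share called was 50%, 33.3% and 25%, against 31.0%, 48.9% and 28.0% of all tested genes. The exosome ring gene exos-7 averaged 44.4 ± 1.65 FPKM in iff-1 RNAi 15C and 60.3 ± 0.543 in EV 15C (SD, n = 3 each), a fall of 0.43 (limma adjusted p = 0.000517). The ring gene exos-8 averaged 65.7 ± 6.48 FPKM in iff-1 RNAi 15C and 95.1 ± 5.28 in EV 20C, a fall of 0.53 (limma adjusted p = 0.000413). Both held in 18 of 18 alternatives. The gene exos-4.1 rose over EV 15C by 0.21 under iff-1 RNAi (limma adjusted p = 0.0117) and by 0.21 at 20°C (limma adjusted p = 0.0145, or 0.0546 without EV 15C library 1). It shares 1184 nt of exon on the same strand with tin-9.2, so its level is uncertain. The exonuclease gene xrn-2 averaged 66.8 ± 4.03 FPKM in EV 20C and 77.5 ± 2.78 in EV 15C, a fall of 0.21 (limma adjusted p = 0.0381). It was lost without EV 15C library 1, 2 or 3, EV 20C library 1 or 3 or iff-1 RNAi library 2 (adjusted p = 0.054 to 0.127), without the filter or the variance trend, and if the 10 highest genes were left out of the scaling. Over EV 15C, the falls under iff-1 RNAi numbered 3 without EV 15C library 2 or iff-1 RNAi library 1 or 2, and the rises 2 without EV 20C library 1 or 2. At 20°C the rises numbered 1 without EV 15C library 1, 3 without EV 15C library 2 and 4 without EV 20C library 2.

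Ribosomal RNA itself is the product of polymerase I, and the libraries were selected for poly-A RNA, whose part in the rRNA values was not tested. Of 4 rRNA gene IDs matched, 2 were tested, both IDs named rrn-1.1 were listed at 0 in all 9 libraries, and of the tested none was called by limma in any comparison (0 at an unadjusted p under 0.05). The gene rrn-2.1 had 963, 1160.0 and 2996 FPKM in iff-1 RNAi 15C, 1718, 1262 and 909 FPKM in EV 20C, and 1009, 1098 and 684 FPKM in EV 15C. The gene rrn-3.1 had 248, 321 and 756 FPKM in iff-1 RNAi 15C, 426, 369 and 659 FPKM in EV 20C, and 407, 408 and 558 FPKM in EV 15C. Library 3 of iff-1 RNAi 15C was the highest of the 9 libraries for both, and the groups overlapped. That library also had the highest value of its group for 7 of the 10 genes, and the part of rRNA in those values was not tested.

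The tested genes outside the set whose pattern over the 9 libraries was most like that of fib-1 were car-1, nol-58 and F23B12.7 (Pearson r of log2(FPKM + 1) 0.968, 0.965 and 0.955). Of them car-1 encodes an RNA-binding protein of germ line RNA granules, and nol-58 is described above. In all, 37 genes reached r of 0.9 with fib-1 and 5 with ncl-1, where brp-1, M01E5.3 and F15B9.6 came first (r = 0.943, 0.926 and 0.919). These values describe 9 libraries that fall into 3 groups, and the genes were picked from all tested genes as the most alike.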

How the data were processed

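The authors deposited 1 table of FPKM values per gene and library for 9 poly-A libraries. CASAVA and Cufflinks are named without versions in the submitters' processing notes; the sources used here do not give the aligner, build, annotation or strand setting. Coordinates and exon overlaps are from the Ensembl annotation of WBcel235, and the authors' build may differ. FPKM are not counts and no count model was used. Depth was estimated from 1-fragment steps in transcripts over 1000 nt, with 200 nt taken off their length; 56.8% to 63.0% of low values lay within 0.1 of a whole number, too few to recover counts.

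Genes with a mean of at least 1 FPKM entered limma 3.58.1 (R 4.3.3) as log2(FPKM + 1), a scale that understates changes of low genes, two-sided, with a variance trend, 6 residual degrees of freedom and Benjamini-Hochberg adjustment over all tested genes. An exact permutation test of 3 against 3 libraries cannot go below 0.1. The fit was tested on simulated data. SD is over 3 libraries and SE is limma's. Summaries used Python 3.11.15 with pandas 2.3.3 and scipy 1.17.1.

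The members and lists were chosen with earlier results of these data known, so their counts are descriptions. Genes were named by rule: the 10 members, iff-1, per list and comparison the called gene with the largest rise and fall, the highest gene of a marker list, and the 3 genes most like fib-1 and like ncl-1. The rest of the small subunit list, zhp-4, W07E6.5, rpt-4, tin-9.2, ehn-3 and the rRNA genes were named outside it, after their values were seen. The 18 alternatives were 9 settings and leaving out each library in turn. A planned look at promoter motifs was not run.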

Additional observations from a re-analysis of the deposited data

How the results depend on the processing

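The order of the 10 levels was the same without any single library. Over all 8572 genes, leaving out single libraries gave 1514 to 2518 calls for EV 20C over EV 15C, where 2401 were called with all libraries. For the 10 genes, single libraries gave 0 to 6 calls in iff-1 RNAi 15C over EV 15C (4 with all libraries), 2 to 4 over EV 20C (4) and 0 to 3 in EV 20C over EV 15C (2). For the other pathway genes they gave 13 to 25 calls in iff-1 RNAi 15C over EV 15C (22) and 7 to 17 in EV 20C over EV 15C (14). Without the filter on low values, 18197 genes entered the fit and the adjustment. The 10 genes then had 1, 2 and 1 calls in the same order of comparisons, and the pathway genes had 9 in EV 20C over EV 15C. A fit of the pair of groups alone gave 1 call over EV 15C and 2 over EV 20C. No variance trend gave 1 in EV 20C over EV 15C. Quantile normalization gave 2 over EV 15C, and 22 pathway calls in EV 20C over EV 15C. The cause of these shifts was not tested.

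A fit with the replicate block gave 2, 2 and 1 calls among the 10 genes. Under iff-1 RNAi it lost the calls of rpoa-1 and fib-1 over EV 15C and of nst-1 and rbd-1 over EV 20C. In EV 20C over EV 15C it lost the call of fib-1. The block also lost calls of the pathway genes xrn-2 in EV 20C over EV 15C (limma adjusted p = 0.0655) and rpoa-49 in iff-1 RNAi 15C over EV 15C (limma adjusted p = 0.086). Same-numbered libraries did not deviate together (r of deviations from the group means -0.19 to 0.0817). With 3 libraries a group, these values cannot show whether same-numbered libraries shared a culture or a batch. For no comparison did every library correlate best with its own number.

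Uncalled directions reversed in places. In EV 20C over EV 15C, median ratio and quantile scaling gave log2 differences of -0.0042 and -0.017 for rpoa-2, -0.0018 and -0.0061 for pro-2, and -0.036 and -0.037 for pro-3; quantile normalization gave -0.010 for ncl-1. In iff-1 RNAi 15C over EV 20C, quantile normalization gave 0.086 for rpoa-1, and scaling without the 10 highest genes -0.038 for fib-1 and -0.0088 for ncl-1. Without single libraries, EV 20C over EV 15C ran from -0.026 to 0.026 for pro-3 and -0.032 to 0.14 for ncl-1. Over EV 20C, iff-1 RNAi 15C ran from -0.14 to 0.0070 for rpoa-1, -0.036 to 0.072 for fib-1, -0.097 to 0.042 for dao-5 and -0.023 to 0.092 for ncl-1. Over all named genes and settings, 738 values kept direction and call, 95 lost the call, 9 gained it and 22 reversed.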
